A study of Mus musculus with 22 samples.

Results

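The 145 probe sets described here were lower in NOD than in C57BL/6 pancreatic dendritic cells (DCs) in 3 contexts, at steady state, after PBS culture and after LPS culture. A probe set is a group of array probes read together as 1 value. A probe set was a member if its NOD mean lay at least 1 log2 unit below its C57BL/6 mean at steady state, after PBS culture and after LPS culture, and if its lowest C57BL/6 array exceeded its highest NOD array each time. Of 45037 probe sets, control probe sets not counted, 153 met this rule and 8 were left out because they belong to genes set aside by name (Reg2, Reg3b, Ifi204, Ifi209, Ifi213, Cd200r4, Ccr2, Bcl2, Fgf2, Fcgr2b and the H2 genes), which left 0.322%. The mirrored rule, with NOD as the higher strain, found 97 probe sets (0.215%). The members were thus chosen by the strain differences themselves, which are given below as values and carry no test.

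The samples were CD11c+CD8α- cells from the pancreas of female NOD/ShiLtJ and C57BL/6J mice aged 5 weeks. Leukocytes were first enriched with CD45 beads and then sorted by flow cytometry, and each array holds RNA from a pool of 10 pancreases. Cells were measured directly after sorting (steady state, 3 NOD and 4 C57BL/6 arrays), after 18 h of culture with PBS (4 NOD and 4 C57BL/6 arrays) or after 18 h with lipopolysaccharide, LPS (4 NOD and 3 C57BL/6 arrays). The values are log2 expression values that the authors normalized with RMA, so that a difference of 1 is a 2-fold change, and differences are NOD minus C57BL/6.

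The median of the 22 arrays lay between 7.63 and 7.68. Transcripts used as DC markers were measured in both strains. Itgax, which encodes CD11c, ranged from 8.11 to 10.9 on NOD arrays and from 8.36 to 11.4 on C57BL/6 arrays, and Zbtb46, a transcription factor of conventional DCs, ranged from 9.45 to 9.90 on NOD arrays and from 9.41 to 10.4 on C57BL/6 arrays. The DC marker Flt3 ranged from 8.76 to 9.28 on NOD arrays and from 9.28 to 10.1 on C57BL/6 arrays. Of 20 DC markers on the arrays, 7, 5 and 7 were lower in NOD without overlap at steady state, after PBS and after LPS. The shares over all probe sets were 10.8%, 6.36% and 8.37%. Higher in NOD without overlap were 2, 1 and 1 of the 20, against 12.3%, 6.55% and 9.23% of all probe sets. Markers of other leukocytes had signal as well. The macrophage marker Adgre1 ranged from 11.7 to 13.1 on NOD arrays and from 11.6 to 13.2 on C57BL/6 arrays. For the T cell marker Cd3e, values were 8.76 to 9.69 on NOD arrays and 8.43 to 9.03 on C57BL/6 arrays. How pure the sorted cells were cannot be read from these values. Transcripts of other pancreas cells were measured too. The trypsinogen gene Prss2 ranged from 7.92 to 13.4 on NOD arrays and from 7.29 to 13.3 on C57BL/6 arrays.

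The NOD mouse develops autoimmune diabetes, and pancreatic DCs present islet antigens to T cells before the disease appears. Inbred strains differ in their genomes, most densely in families of immune genes that arose by duplication, such as the TRIM antiviral genes and the lectin-like receptors of natural killer (NK) cells. NK receptors of the Klra (Ly49) and Klrc (NKG2) families bind MHC class I or related molecules, and are expressed mainly by NK cells, although single members are used by myeloid cells.

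Of the 145 members, 100 name 1 gene each and together stand for 87 genes, of which 13 have more than 1 member probe set. A further 11 members name several genes and 34 name none (23.4%, against 20.3% of all probe sets). The members' median difference was -1.73 at steady state, -1.64 after PBS and -1.50 after LPS, where the medians of all probe sets were 0.04, 0.03 and 0.01. In each context alone, 1.43% (steady state), 0.955% (PBS) and 1.03% (LPS) of all probe sets met the rule. In all 3 contexts, 30 members were lower by more than 2 log2 units and 9 by more than 3. Close to the limit, Trim12a (probe set 1420648_at), Gimap4 (1424374_at) and Znf41-ps lay just inside, with smallest differences of -1.001, -1.004 and -1.004, and Rsl1, Dubr and Parp3 lay just outside, with -0.997, -0.995 and -0.994. Within groups, the median SD over the members lay between 0.16 and 0.27, against 0.14 to 0.20 over all probe sets. The largest SD of a member was 2.28, in C57BL/6 cells after LPS. A gap that is wide against the spread is required by the rule and is no result.

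**Figure D1:**
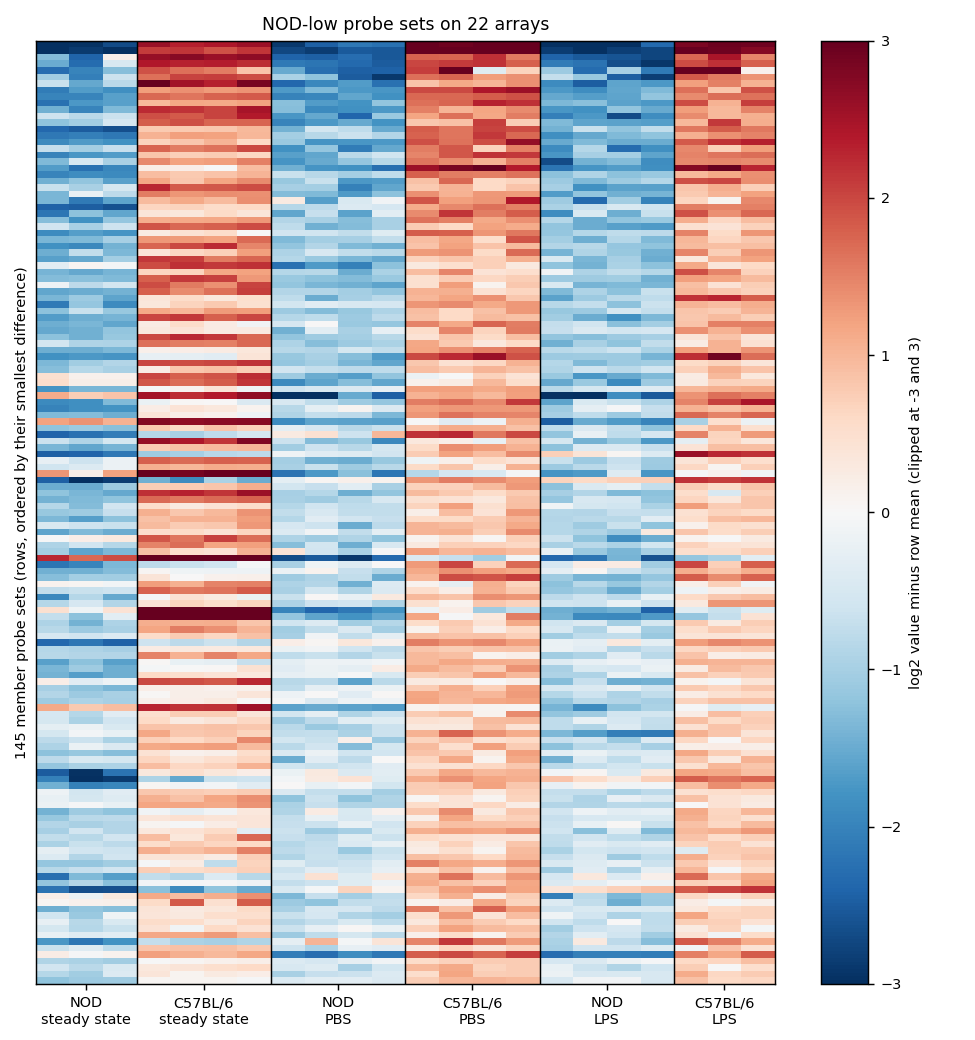
Values of the 145 member probe sets (rows, ordered by the smallest of their 3 differences) on 22 arrays (columns), as log2 values minus the row mean, clipped at -3 and 3. In each context the NOD columns lie left of the C57BL/6 columns and are lower for every row, as the rule requires, while some rows change more with culture than with strain.

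Promoter sequences are shown for 5 members that carry the main gene groups below, the antiviral genes Trim12a, Trim12c and Apobec3 and the NK cell genes Xcl1 and Nkg7. They come from RefSeq (GRCm38.p6, a C57BL/6 reference), run 5′ to 3′ on the strand of the gene, and span 250 bases before to 50 bases after the annotated start. Capitals mark exact matches, on either strand, to GAAA, any 2 bases and GAAA again (an interferon response element), and to TCACACC (a T-box element), CAGGAAG (an ETS element) and TGTGGTT (a RUNX element).
Trim12a (chr7:104315446-104315745, minus strand): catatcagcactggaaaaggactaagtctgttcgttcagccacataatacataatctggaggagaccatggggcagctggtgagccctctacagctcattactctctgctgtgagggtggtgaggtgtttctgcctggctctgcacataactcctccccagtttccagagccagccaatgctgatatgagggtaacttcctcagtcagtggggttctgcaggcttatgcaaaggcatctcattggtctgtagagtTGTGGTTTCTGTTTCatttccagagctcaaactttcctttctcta
Trim12c (chr7:104353300-104353599, minus strand): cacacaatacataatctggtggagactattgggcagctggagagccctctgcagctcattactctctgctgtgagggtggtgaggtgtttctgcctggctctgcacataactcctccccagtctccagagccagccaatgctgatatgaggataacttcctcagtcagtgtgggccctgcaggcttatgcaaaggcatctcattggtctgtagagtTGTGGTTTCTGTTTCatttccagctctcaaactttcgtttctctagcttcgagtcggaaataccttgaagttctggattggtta
Apobec3 (chr15:79892158-79892457, plus strand): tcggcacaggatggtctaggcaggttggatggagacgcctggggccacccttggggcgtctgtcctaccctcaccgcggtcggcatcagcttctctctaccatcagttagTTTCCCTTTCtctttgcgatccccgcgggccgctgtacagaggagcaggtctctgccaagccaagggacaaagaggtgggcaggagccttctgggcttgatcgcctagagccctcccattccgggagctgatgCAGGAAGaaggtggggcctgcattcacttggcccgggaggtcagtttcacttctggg
Xcl1 (chr1:164935473-164935772, minus strand): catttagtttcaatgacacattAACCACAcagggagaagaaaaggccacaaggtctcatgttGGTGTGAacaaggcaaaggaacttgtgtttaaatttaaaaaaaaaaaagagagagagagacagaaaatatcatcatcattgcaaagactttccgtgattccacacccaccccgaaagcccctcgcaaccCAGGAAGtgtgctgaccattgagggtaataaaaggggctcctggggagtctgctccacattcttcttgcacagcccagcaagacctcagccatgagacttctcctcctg
Nkg7 (chr7:43436888-43437187, plus strand): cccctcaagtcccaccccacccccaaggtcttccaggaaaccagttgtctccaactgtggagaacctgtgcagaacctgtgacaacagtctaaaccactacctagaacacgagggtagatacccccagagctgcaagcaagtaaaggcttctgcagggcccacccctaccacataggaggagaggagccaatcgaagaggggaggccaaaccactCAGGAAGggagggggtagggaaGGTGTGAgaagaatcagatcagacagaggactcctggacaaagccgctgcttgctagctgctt
In Trim12a and Trim12c the capitals are 1 run in which a RUNX match and an interferon match overlap, and over the 2 promoters 248 of 340 aligned columns were identical (72.9%). Promoters were found for 65 of the 87 genes. The interferon element was matched in 8 of these 65 (12.3%), against 3.99% of all 27025 genes with a promoter in the table. The T-box element was matched in 4.62% against 4.60%, the ETS element in 24.6% against 14.8% and the RUNX element in 7.69% against 6.09%. Of the 7 NK member genes with a promoter, Xcl1 and Nkg7 were the 2 with a T-box match and the other 5 had none, and the printed promoters were chosen after the matches were seen. A match describes these letters only, and no binding was measured.

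The deepest differences were those of Trim12a and Trim12c, neighbouring genes of the TRIM family related to the retroviral restriction factor TRIM5. Trim12a (1437432_a_at) had 4.99, 5.39 and 5.70 in NOD and 10.96, 10.71, 10.80 and 10.93 in C57BL/6 cells at steady state. After PBS it had 5.47, 5.92, 6.21 and 6.14 in NOD, against 11.61, 11.29, 11.40 and 11.37 in C57BL/6, and after LPS 4.97, 5.20, 5.23 and 6.05 in NOD, against 11.19, 11.31 and 11.28 in C57BL/6. The Trim12a differences were thus -5.49, -5.48 and -5.90, and the strains did not overlap in any context. Trim12c (1443858_at) differed by -5.05, -6.15 and -5.93, with NOD arrays between 3.70 and 4.45 and C57BL/6 arrays between 8.89 and 10.72. The second member probe sets of both genes differed less. Trim12c (1445271_at) differed by -2.14, -1.65 and -1.50, and Trim12a (1420648_at) by -1.17, -1.30 and -1.001. The NOD means of Trim12a (1437432_a_at) and Trim12c (1443858_at) lay below the lower quartile of their arrays (6.03 to 6.36 over all arrays) in all 3 contexts. This held for 17 members, Lcp2, Wdr20, Klrc2 and the second Klrc1 probe set among them, and 47 members lay there in at least 1 context. The values carry no detection call, so for these members a NOD signal above background is not shown, and the exact size and order of their differences are uncertain. Because the 2 genes are close relatives, signal cannot be assigned with certainty to 1 of them.

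Apobec3, a cytidine deaminase that restricts retroviruses, was the other member among the interferon-stimulated genes. At steady state it had 10.29, 10.68 and 10.29 in NOD cells and 11.93, 11.68, 11.64 and 11.21 in C57BL/6 cells. After PBS it had 11.63 to 11.83 in NOD, against 12.88 to 13.06 in C57BL/6, and after LPS 11.52 to 11.77 in NOD and 12.92 to 12.97 in C57BL/6. The gap of Apobec3 was nearly the same each time (-1.20, -1.23 and -1.29), although both strains had more of it in culture. These 3 genes were members out of 47 interferon-stimulated genes on the arrays. Of the 47, 37 were lower in NOD without overlap at steady state (10.8% of all probe sets were), but 6 after PBS (6.36% of all) and 5 after LPS (8.37% of all). Higher in NOD without overlap were 1, 6 and 10 of the 47, against 12.3%, 6.55% and 9.23% of all probe sets. The median difference of this list was -0.62 at steady state, 0.07 after PBS and 0.07 after LPS.

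The gene group with most members was that of NK and innate lymphoid markers, with 9 of the 28 on the arrays. These were Klra8, Klrc1, Klrc2 and Klrd1 (lectin-like receptors, Klrd1 being CD94, the partner chain of the NKG2 receptors), Ncr1 (the activating receptor NKp46), Nkg7 (a protein of cytotoxic granules), Tbx21 (the transcription factor T-bet), Il2rb (a receptor chain for IL-2 and IL-15) and Xcl1 (a chemokine made by NK and T cells). Klra8, the activating receptor Ly49H, had 6.79, 6.61 and 6.77 in NOD and 9.35, 9.26, 9.45 and 9.80 in C57BL/6 cells at steady state. After PBS, Klra8 had 5.68, 5.88, 5.03 and 6.30 in NOD, against 8.59, 9.06, 8.57 and 8.95 in C57BL/6, and after LPS 5.36, 5.70, 4.72 and 5.55 in NOD and 8.83, 8.38 and 8.49 in C57BL/6. It showed the deepest difference of the 9 in each context (-2.74, -3.07 and -3.23). Probe sets of the Klra family share much sequence, so that 1 member cannot be told from another with certainty.

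Klrc1, the inhibitory receptor NKG2A, had 2 member probe sets. The first (1426182_a_at) had 5.71, 6.64 and 6.32 in NOD and 8.25, 8.20, 8.46 and 8.25 in C57BL/6 cells at steady state. It differed by -2.06, -2.77 and -2.78 in the 3 contexts, and the second by -2.60, -2.14 and -1.98. Ncr1, a defining marker of NK cells, had 6.92, 7.10 and 7.33 in NOD and 8.57, 8.49, 8.62 and 8.61 in C57BL/6 cells at steady state, 6.44 to 6.85 in NOD and 7.68 to 8.56 in C57BL/6 after PBS, and 6.41 to 6.89 in NOD and 7.60 to 8.24 in C57BL/6 after LPS. The gap of Ncr1 stayed between -1.38 and -1.55. Xcl1 had 8.15, 8.30 and 8.47 in NOD and 9.68, 9.56, 9.77 and 10.01 in C57BL/6 cells at steady state. After PBS, Xcl1 had 9.93 to 11.55 in NOD, against 12.12 to 12.81 in C57BL/6, and after LPS 9.36 to 10.32 in NOD and 11.21 to 12.03 in C57BL/6, without overlap of the strains. Klrd1 differed by -1.03, -1.62 and -1.88.

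Over the whole list of 28, 20 genes were lower in NOD without overlap at steady state, 18 after PBS and 17 after LPS, against 10.8%, 6.36% and 8.37% of all probe sets, and 1, 0 and 2 genes were higher, against 12.3%, 6.55% and 9.23% of all probe sets. The list's median difference was -0.82 at steady state, -1.08 after PBS and -1.02 after LPS. Not all NK genes were lower. Prf1, the pore-forming perforin, differed by 0.08, -0.04 and -0.02, and Itga2 was higher in NOD after PBS and LPS (0.68 and 1.25). The summed linear level of the list lay between 13406.5 and 15350 on NOD arrays and between 23388 and 25801 on C57BL/6 arrays at steady state. After PBS it lay between 44071 and 54097 on NOD arrays and between 55031 and 71825 on C57BL/6 arrays. After LPS it lay between 41956 and 51051 on NOD arrays and between 53639 and 65018 on C57BL/6 arrays. In such sorted bulk samples, fewer cells of a type and less RNA per cell cannot be told apart. The part of the NK list in the members' differences was not tested. Probe sequences were not compared with the NOD genome, so the part of strain sequence differences in the members' values was not tested.

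**Figure D2:**
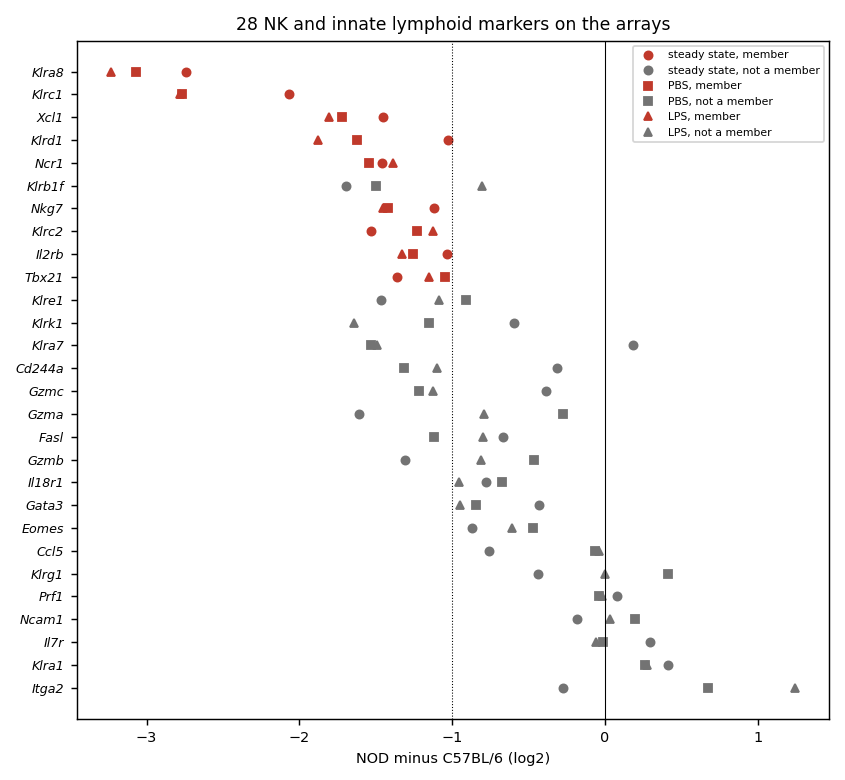
NOD minus C57BL/6 differences (log2, x axis) of the 28 NK and innate lymphoid markers on the arrays (rows) at steady state (circles), after PBS (squares) and after LPS (triangles), with the 9 members in red. The dotted line marks the limit of -1, and Klra8 and Klrc1 lie farthest below it while Prf1 and Itga2 do not reach it.

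Some member genes were neighbours in the gene order, a count for which no background was computed. Of 86 genes that could be placed, 20 fell into 7 runs in which each gene had another member within 10 array genes. The longest run held Klrd1, Klrc2, Klrc1, Klra8, Klra2 and Styk1, all in the NK gene region, and shorter runs were Trim12a with Trim12c, Rps9 with Ncr1 and Eps8l1, Gimap8 with Gimap4, Igsf9 with Dusp23, D730005E14Rik with Apobec3, and Znf41-ps with Gm13238 and Zfp991. Klra2, an inhibitory receptor of the Ly49 family that is found on myeloid cells, had 6.95, 7.06 and 6.97 in NOD and 10.15, 10.35, 10.32 and 10.11 in C57BL/6 cells at steady state. After PBS it had 8.08, 8.29, 8.46 and 8.22 in NOD, against 10.87, 10.70, 11.22 and 10.84 in C57BL/6, and after LPS 7.26, 7.58, 7.78 and 7.90 in NOD and 10.18, 10.48 and 10.59 in C57BL/6. Klra2 differed by -3.24, -2.64 and -2.79 in the 3 contexts, without overlap. Gimap4 and Gimap8, GTPases of lymphocytes, differed by -1.36, -1.56 and -1.50 (1424375_s_at) and by -1.02, -1.55 and -1.43. Gimap8, Styk1, Eps8l1, Igsf9, Dusp23, D730005E14Rik and Gm13238 fell outside the rule for named genes and were named for their place in these runs, after their values were seen.

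Among the genes of receptors and signal adaptors, Fcgr1, the high-affinity IgG receptor CD64, had 7.26, 7.38 and 7.34 in NOD and 10.17, 10.04, 10.11 and 10.27 in C57BL/6 cells at steady state. After PBS it had 8.58, 8.41, 8.22 and 8.48 in NOD, against 11.05, 10.79, 10.77 and 10.87 in C57BL/6, and after LPS 8.01, 8.35, 8.03 and 8.15 in NOD and 10.22, 10.38 and 10.62 in C57BL/6. The Fcgr1 groups did not overlap in any context, and their differences were -2.82, -2.45 and -2.27. A different and brighter probe set of Fcgr1 (1417876_at) differed by -0.13, 0.11 and 0.06. Its mean over all arrays was 13.45, against 9.25 for the member. Fcgr1 was the only member among 23 macrophage and monocyte markers on the arrays. Lcp2, the adaptor SLP-76 of antigen receptor and integrin signals, differed by -3.81, -2.96 and -2.81, with NOD arrays between 4.97 and 5.76 and C57BL/6 arrays between 7.93 and 9.43. The other probe set of Lcp2 (1418641_at) differed by -0.05, 0.07 and 0.51, and its mean over all arrays was 11.58, against 6.95 for the member.

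This split between probe sets of 1 gene was common. Of the 87 member genes, 51 had further probe sets on the arrays, 92 in all, which the rule had not taken. Of these 92, 69 (75%) lay within 0.5 log2 units of 0 on average over the contexts, against 93.4% of all probe sets, and 6 (6.52%) at or below -1, against 0.766% of all. In 30 of the 51 genes every further probe set lay within 0.5 of 0. In 10 genes all were at or below -0.5, and 11 genes were mixed. Counted separately, 30 genes had a further probe set within 0.5 of 0 that was brighter than their member probe sets. Snx6, a sorting nexin of endosomal transport, differed by -2.29, -2.72 and -3.26 in its member probe set, while its 3 others averaged between 0.03 and 0.11. Wdr20, a partner of deubiquitinases, differed by -3.18, -3.86 and -3.09 in its member and averaged 0.04 and 0.14 in the others. Uqcr10, a subunit of respiratory complex III, had members at -3.59, -3.62 and -3.07 (1434340_at) and at -2.19, -2.03 and -1.74 (1434341_x_at), and a further probe set at 0.25, -0.33 and -0.40. For these genes a member's difference is therefore a value of that probe set and not of the gene as a whole.

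Other genes were lower in more than 1 probe set. Pttg1, the securin that inhibits separase, had members at -1.59, -1.21 and -1.46 (1424105_a_at) and at -1.97, -1.18 and -1.41, and its remaining probe set differed by -1.90, -0.97 and -1.09. Il2rb differed by -1.03, -1.26 and -1.33 in its member and by -0.90, -1.20 and -1.17 in the other probe set. Suclg2, a subunit of succinate-CoA ligase, differed by -1.34, -1.71 and -1.16 in its member and by -1.62, -0.98 and -0.92 in the other. No member was among the 42 cell cycle genes on the arrays, whose list does not hold Pttg1. Of the 42, 37 at steady state, 8 after PBS and 7 after LPS were lower in NOD without overlap. The shares over all probe sets were 10.8%, 6.36% and 8.37%. Higher without overlap were 1, 2 and 3, against 12.3%, 6.55% and 9.23% of all probe sets. Of the other lists, 38 paired and leukocyte immunoglobulin-like receptors held Cd300ld and Fcgr1, and 52 chemokines and chemokine receptors held Xcl1. Lists of T cell, B cell, mast cell, neutrophil, DC and pancreatic (acinar, islet and duct) markers, C-type lectins, inflammasome genes, candidate genes of diabetes loci and xenobiotic enzymes held no member. Members were 87 of the 18193 genes on the arrays, so a short list without a member says little.

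**Figure D3:**
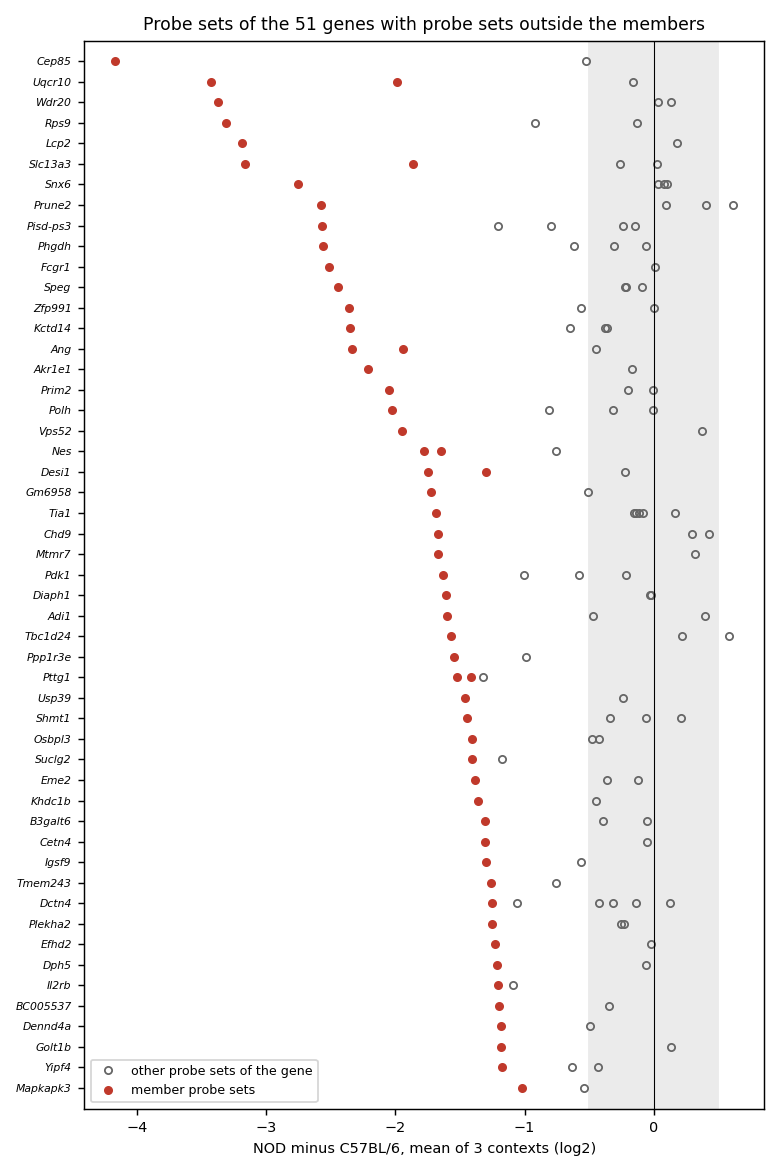
NOD minus C57BL/6 difference averaged over the 3 contexts (log2, x axis) for member probe sets (filled) and the other probe sets (open) of the 51 genes that have both (rows). The grey band spans -0.5 to 0.5 and holds 69 of the 92 other probe sets, and Pttg1, Il2rb and Suclg2 are among the genes whose open points lie outside it.

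Several of the deepest differences concerned genes with general cell functions. Cep85, a centrosomal protein, had 9.66, 8.55 and 11.10 in NOD and 13.57, 13.67, 13.54 and 13.64 in C57BL/6 cells at steady state. After PBS it had 8.54, 8.50, 8.67 and 8.41 in NOD, against 12.72, 12.68, 13.13 and 12.50 in C57BL/6, and after LPS 8.55, 8.43, 8.36 and 8.18 in NOD and 12.66, 13.39 and 12.41 in C57BL/6. The 3 NOD arrays of Cep85 at steady state spread widely (SD 1.28) but stayed below all C57BL/6 arrays, and its other probe set averaged -0.52. Rps9, a protein of the small ribosomal subunit, differed by -3.18, -3.39 and -3.37 (1434624_x_at), and its 2 other probe sets averaged -0.92 and -0.13. Phgdh, the first enzyme of serine synthesis, differed by -2.56, -2.26 and -2.85, and its 3 other probe sets averaged between -0.62 and -0.06. Tmem14c, a mitochondrial membrane protein of haem synthesis, differed by -2.20, -2.63 and -2.42. D17H6S56E-5 (1417822_at), the pseudogene Pisd-ps3, the zinc finger gene Zfp991, the aldo-keto reductase Akr1e1 and the muscle kinase Speg were also among the deepest 20 genes, with differences between -1.94 and -3.58. A second D17H6S56E-5 member (1417821_at) differed by -3.68, -3.15 and -3.19. Probe sets outside the members averaged -1.21 to -0.14 for Pisd-ps3 and -0.56 to 0.006 for Zfp991. They averaged -0.22 to -0.09 for Speg and -0.17 for Akr1e1. A probe set of an immunoglobulin kappa variable segment (1427837_at) differed by -3.33, -3.78 and -4.39, with C57BL/6 arrays from 8.73 to 13.32. Of 11 B cell markers 2, 2 and 1 were lower without overlap in NOD, against 10.8%, 6.36% and 8.37% of all probe sets. Higher without overlap were 0, 0 and 0, against 12.3%, 6.55% and 9.23% of all probe sets. The summed level of those markers lay between 11165 and 14772 on NOD arrays and between 15986 and 23499 on C57BL/6 arrays at steady state. It lay between 6222 and 11928 on NOD arrays and between 11992 and 31229 on C57BL/6 arrays after PBS, and between 10129.5 and 22498 on NOD arrays and between 20715 and 35990 on C57BL/6 arrays after LPS. The strains thus overlapped in this sum after LPS, and in the mean log2 value of the list they overlapped in all 3 contexts. The part of B cell transcripts in the difference of 1427837_at was not tested.

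The size of the gap varied between contexts for many members. The median distance between the deepest and the smallest of the 3 differences was 0.54. The differences lay within 0.5 log2 units of each other for 63 members, over 1 apart for 33 and over 2 apart for 6. Hgsnat, a lysosomal enzyme of heparan sulfate breakdown, had 10.80, 10.54 and 10.68 in NOD and 11.81, 11.65, 11.54 and 11.73 in C57BL/6 cells at steady state. After PBS, Hgsnat had 8.50, 8.30, 8.72 and 8.44 in NOD, against 12.40, 12.56, 12.33 and 12.64 in C57BL/6, and after LPS 8.29, 8.51, 8.53 and 8.47 in NOD and 12.08, 11.73 and 12.40 in C57BL/6. Its difference was -1.01 at steady state, -3.99 after PBS and -3.62 after LPS. NOD arrays after PBS lay below, and C57BL/6 arrays after PBS above, those of the same strain at steady state. Slc13a3, a dicarboxylate transporter, also had its smallest difference at steady state (-1.55, -3.77 and -4.17 in 1438377_x_at). The second Slc13a3 member (1416560_at) varied less, with -1.58, -2.05 and -1.96. Prune2 (-4.20, -2.27 and -1.25), Ang, the ribonuclease angiogenin (-4.10, -1.64 and -1.26 in 1438936_s_at), and Zfp874a (-3.67, -1.89 and -1.36) had their deepest difference at steady state. The second Ang member (1438937_x_at) varied less, with -2.46, -2.05 and -1.32. Averaged over the contexts, probe sets outside the members differed by 0.10 to 0.62 for Prune2, -0.26 to 0.02 for Slc13a3 and -0.45 for Ang. Whether the gaps differ between contexts was not tested, since the same values chose the members, and Hgsnat and Zfp874a were picked after their values were seen.

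**Figure D4:**
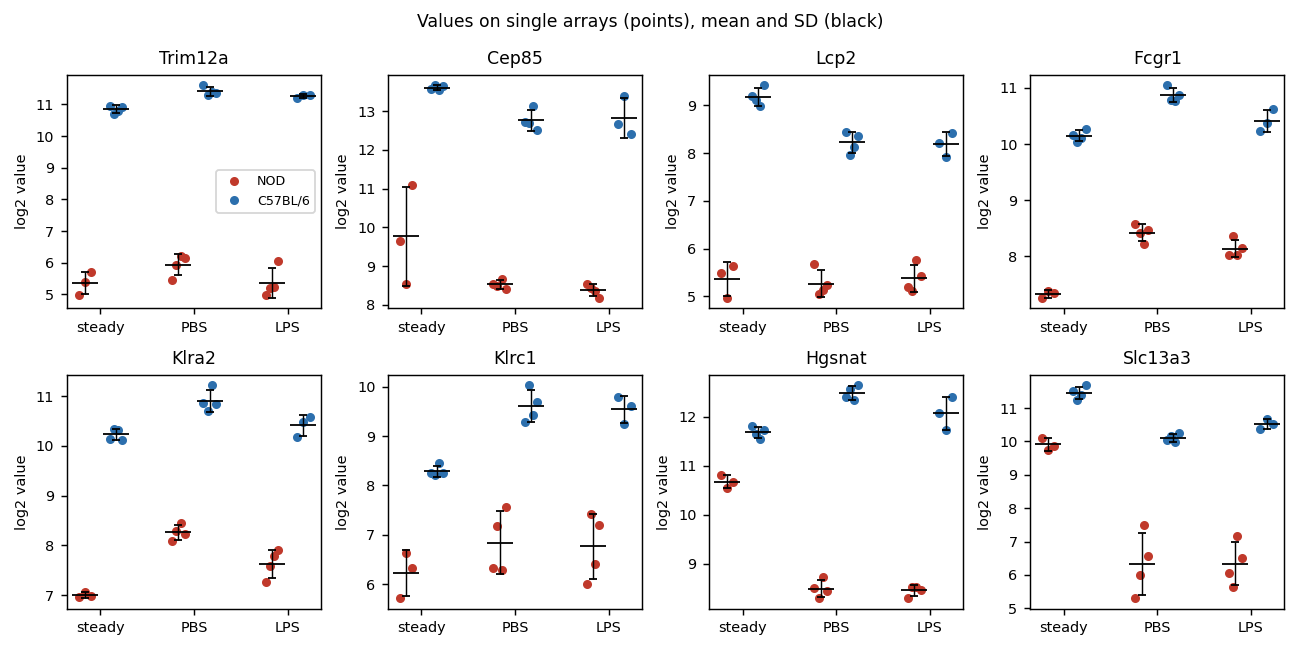
Log2 values (y axes) of 8 members on single arrays (points, NOD in red left of C57BL/6 in blue), with group mean and SD in black, at steady state, after PBS and after LPS. The strains do not overlap in any panel, the Hgsnat and Slc13a3 gaps are wider in culture than at steady state, and the Fcgr1 and Klra2 gaps are widest at steady state.

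The effect of LPS asks a question the rule did not use, namely whether the members changed with LPS, averaged over both strains. LPS arrays were compared with PBS arrays by limma on 15 arrays, with Benjamini-Hochberg adjustment over all 45037 probe sets and calls at an adjusted p under 0.1. Per the methods, part of the sorted cells was lysed directly and the rest was cultured with or without LPS, so arrays of different contexts may share pools, which the fit without a block does not take into account. Of the 145 members, 6 were higher with LPS (4.14%, background 3.75%) and 19 were lower (13.1%, background 5.43%), and 120 were not called. The median effect was -0.07, against 0.01 over all probe sets. The number of lower calls was not steady. It was 12 without C57BL/6 PBS replicate 1 and 12 without replicate 4 of that group. It was 11 without NOD PBS replicate 4 and 11 without C57BL/6 LPS replicate 3. It was 29 (background 9.47%) when equal replicate numbers were blocked, although pairing by number is not shown.

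Among the LPS calls, Thbs1, the matrix protein thrombospondin 1, had 10.44, 10.37, 10.50 and 10.49 in NOD after LPS and 9.50, 9.83, 9.94 and 9.89 after PBS (1460302_at). In C57BL/6 it had 11.95, 11.86 and 11.94 after LPS and 11.10, 11.31, 11.20 and 11.04 after PBS. Thbs1 was higher with LPS in both strains with no overlap, by 0.71 (SE 0.08, adjusted p = 5.02e-05), and its other member probe set by 0.71 (SE 0.14, adjusted p = 0.00647). Mtmr7, a phosphoinositide phosphatase, was higher by 0.90 (SE 0.15, adjusted p = 0.00138) in its member probe set. A brighter Mtmr7 probe set had a mean strain difference of 0.32. Lower with LPS were BC005537 with an effect of -0.68 (SE 0.09, adjusted p = 1.82e-04), Pstpip1, a cytoskeletal adaptor that binds pyrin, with -0.55 (SE 0.08, adjusted p = 5.54e-04) and Klra2 with -0.56 (SE 0.11, adjusted p = 0.00509). Xcl1 was lower with an effect of -0.90 (SE 0.21, adjusted p = 0.0162) and Fcgr1 with -0.37 (SE 0.09, adjusted p = 0.0161). Speg was lower with -1.05 (SE 0.30, adjusted p = 0.0472), a call lost without C57BL/6 LPS replicate 3 (adjusted p = 0.133). Zfp991, Akr1e1 and Prune2 passed the threshold (adjusted p = 0.0983, 0.0770 and 0.0927), but lost the call in 11, 9 and 10 of the 15 fits with 1 array left out, with adjusted p up to 0.250, 0.170 and 0.242. Xcl1 was the only NK member called without the block. Klra8 (-0.31) did not pass the test without the block (adjusted p = 0.408) but was lower when equal replicate numbers were blocked (adjusted p = 0.0255). Klrc1 (-0.07), Ncr1 (-0.10), Klrd1 (-0.23) and Il2rb (-0.06) did not pass it in either fit. With the block, Trim12a (1437432_a_at, adjusted p = 0.0586), Trim12c (1445271_at, 0.0564), Cd300ld (0.0744), Pttg1 (1419620_at, 0.0946) and Hgsnat (0.0818) were called lower and Pdk1 (0.0524) higher, while none of these passed without it. The other Trim12c member (1443858_at) was called lower in both fits, with -0.38 and adjusted p = 0.0545 without the block and 0.0223 with it.

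The effect of culture, PBS minus steady state, was fitted in the same way. It called 68 members higher (46.9%, background 47%) and 51 lower (35.2%, background 33.3%), and 26 were not called, shares close to those of all probe sets. Ang was lower in culture, with effects of -3.57 (SE 0.16) and -4.79 (SE 0.13) in its 2 member probe sets. Also lower were Pdk1, a kinase that restrains pyruvate dehydrogenase, with -3.11 (SE 0.18), Chd9, a chromatin remodeller, with -2.73 (SE 0.15), and Suclg2 with -2.37 (SE 0.08). The Chd9 effect is that of its member probe set, and its 2 other probe sets had mean strain differences of 0.29 and 0.43. Higher in culture were Thbs1 by 2.60 (SE 0.15), Xcl1 by 2.65 (SE 0.18), Pttg1 by 2.31 (SE 0.08) and Il2rb by 1.85 (SE 0.16). The second member probe sets were higher by 0.89 (SE 0.09) for Pttg1 (1419620_at) and by 2.90 (SE 0.15) for Thbs1 (1460302_at). The NK members moved in both directions. Klrc1 (1426182_a_at, 0.97), Klrc2 (0.62), Il2rb and Xcl1 were higher, Klra8 (-0.84), Klrd1 (-0.76) and Ncr1 (-0.45) were lower, and Nkg7 (0.09) and Tbx21 (0.10) did not pass the test. The second Klrc1 probe set (1425005_at) did not pass it either, with -0.02 (adjusted p = 0.918). Ifng, the cytokine interferon gamma, a member noted after its values were seen, was higher in culture by 1.72 (SE 0.20, adjusted p = 4.17e-07) and differed between the strains by -1.31, -1.79 and -1.78. Rps9 was lower with -0.53 (adjusted p = 0.0717), but lost the call in 8 of the 15 fits with 1 array left out (adjusted p up to 0.209) and when equal replicate numbers were blocked (0.117).

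Cd300ld, an activating receptor of myeloid cells, moved in opposite directions in the strains. After PBS it had 9.33, 9.43, 9.11 and 9.40 in NOD and 11.08, 10.80, 11.15 and 11.07 in C57BL/6. At steady state it had 8.53, 8.74 and 8.80 in NOD cells and 12.20, 12.31, 11.98 and 12.21 in C57BL/6 cells. Cd300ld was thus higher in culture in NOD and lower in C57BL/6, and the gap was -1.71 after PBS and -3.49 at steady state. The strain average of the effect was -0.26 (SE 0.08, adjusted p = 0.0091 by limma). This call was lost when equal replicate numbers were blocked (adjusted p = 0.102).

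**Figure D5:**
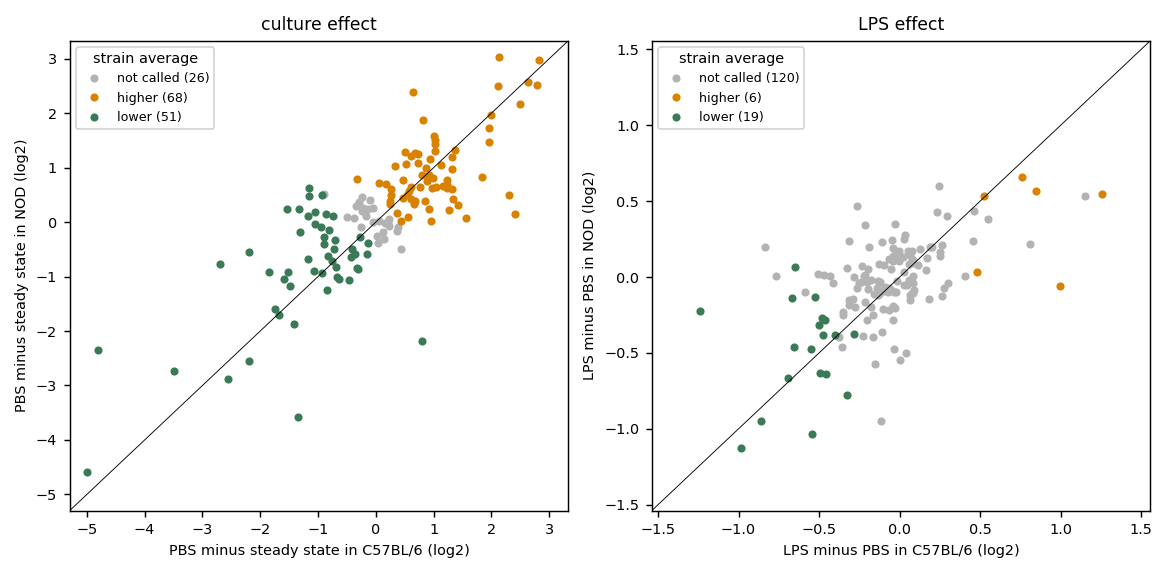
Culture effect (PBS minus steady state, left) and LPS effect (LPS minus PBS, right) of the 145 members in NOD (y axis) against C57BL/6 (x axis), in log2, coloured by the call on the strain average, with the line of equal effects. Culture effects span a wider range than LPS effects, and most members called under LPS lie below 0.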

How the data were processed

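The 22 Affymetrix Mouse Genome 430 2.0 arrays measured sorted pancreatic CD8α- DCs. The deposited values are on the log2 scale, and the authors obtained them by RMA normalization within BRB-ArrayTools (version not given in the sources used here), so depth is not defined for them and the number of arrays limits the precision. The table holds 45101 probe sets, of which 64 AFFX controls were left out. Arrays were grouped by the sample labels, and no array was left out. No gene was named from a probe set annotated to several, and the Entrez id matched 99.4% of those annotated to 1. Member and gene lists were chosen with earlier results of these data known. Named genes are the 20 with the deepest smallest difference, the 8 with the largest LPS and culture effects past the threshold, members of the lists and those at the limit of 1, and a gene is given by its member probe set with the highest mean unless another is named.

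LPS and culture effects were fitted with limma 3.58.1 in R 4.3.3 as group means with an empirical Bayes spread, averaged over strains, on 15 arrays each, and the code was tested on simulated data. Replicate numbers were checked for pairing through residual correlations of arrays with equal numbers. These lay between 0.241 and 0.487 for LPS and PBS, and between -0.03 and 0.277 for PBS and steady state. The ranges overlap and arrays of unequal numbers were not compared, so pairing by number is not shown. The main fits used no block, and a block by replicate number was an alternative. Alternatives are given in the closing section. Promoters and gene order came from RefSeq tables (GRCm38.p6), which were used for names, neighbours and the printed sequences.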

Additional observations from a re-analysis of the deposited data

Results flagged for a closer look

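Among the 42 named probe sets, 168 groups of 4 arrays were examined for 1 array standing far from the other 3, by the share of the group's range that lies between that array and its nearest neighbour. The limit was Dixon's critical value for 4 arrays, and chance flags about 1 in 20 groups. 7 groups passed it.

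Pdk1 in NOD LPS cells had 6.11 in replicate 3 and 4.73 to 4.81 in the others (share 0.945). Ang in NOD LPS cells had 5.85 in replicate 4 and 6.75 to 6.84 in the others (0.907). Wdr20 in NOD PBS cells had 4.67 in replicate 2 and 4.26 to 4.30 in the others (0.902). Trim12a (1420648_at) in C57BL/6 PBS cells had 9.31 in replicate 1 and 9.55 to 9.59 in the others (0.866). Chd9 in NOD PBS cells had 5.05 in replicate 1 and 5.32 to 5.36 in the others (0.864). Pttg1 in NOD LPS cells had 11.62 in replicate 3 and 11.00 to 11.10 in the others (0.842). Klrc1 in C57BL/6 steady state cells had 8.46 in replicate 5 and 8.20 to 8.25 in the others (0.830).

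The culture effect of Cd300ld was 0.63 in NOD and -1.15 in C57BL/6. Every NOD PBS array lay above every NOD steady state array and every C57BL/6 PBS array below every C57BL/6 steady state array. The difference between the strains was not tested, because it uses the values that chose the members.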

How the results depend on the processing

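The number of members was 59 at differences of at least 1.5 log2 units and 87 when counted as genes, and lay between 140 and 150 with each array left out in turn. The higher LPS calls numbered 1 in NOD arrays alone and 4 to 8 with each array left out. The lower LPS calls numbered 29 with strain and replicate number as a replicate block (pairing), 11 at an adjusted p under 0.05, 4 in NOD arrays alone and 2 in C57BL/6 arrays alone, and 11 to 20 with each array left out. Culture calls stayed within 1.5 times the counts above, with 65 to 70 higher and 48 to 52 lower when each array was left out. The culture effect of Cd300ld turned to 0.63 in NOD arrays alone (adjusted p = 0.00141). For 46 called effects of named genes, values under the alternative settings were set beside the main fit. Of these values, 968 kept direction and side of the threshold, 80 lost the call with the direction kept and 1 was reversed. The same gene can be among them under several settings. The cause of these changes was not tested. Groups of 3 or 4 arrays limit what a fit can call.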
